A study of Mus musculus with 6 samples.

Results

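The transcription factors of naive pluripotency examined here are Klf2, Klf4, Klf5, Esrrb, Tbx3, Zfp42, Tfcp2l1, Nr0b1, Prdm14 and Nr5a2. These 10 genes were picked by name, with earlier results of these data known. Every probe set whose only annotated symbol is one of these was taken, which gave 24 probe sets of the 45037 tested. All 10 genes were found, 4 with a single probe set (Klf2, Zfp42, Nr0b1 and Prdm14) and 6 with several. RNA came from E14Tg2a cells, a line of mouse embryonic stem (ES) cells, and all cultures were in N2B27, a serum-free medium, with BMP4 at 20 ng/ml and the cytokine LIF at 1000 U/ml. Control cells had no further addition. Activin cells received activin at 10 ng/ml for 2 h, and SB431542 cells received 5 µM of that compound for 24 h, so agent and duration differ together between the treatments. Each group had 2 single-colour Affymetrix arrays, and all come from 1 cell line. No label ties the 2 arrays of a group to separate cultures, and the p-values below then measure the variation from array to array alone, part or all of which may be technical.

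Mouse ES cells in the naive state resemble the epiblast of the blastocyst before implantation. LIF acts through Stat3 on Klf4 and Tfcp2l1, Wnt signals relieve the repression of Esrrb, Klf2 and others by Tcf7l1, and the factors bind each other's genes and those of the core factors Pou5f1, Sox2 and Nanog, which makes the network robust to losing single members. Activin and Nodal signal through type I receptors and Smad2/3, and SB431542 blocks the kinase of these receptors. That pathway is a main support of the later, primed state of pluripotency, in which most of the naive factors are low.

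To show the start regions of genes the results turn on, the 250 bases before the annotated start are printed 5′ to 3′ for Klf4, Tfcp2l1 and Nr0b1, the members whose brightest probe sets passed the more sensitive of the tests below, and for Zfp42, the brightest and one of the least changed. They are from RefSeq on GRCm38.p6. Of the 10 genes, 7 had an entry in the promoter table, with 9 windows in all (Esrrb and Nr5a2 have 2 each), and Klf5, Tbx3 and Prdm14 had none. Capitals mark matches, on either strand, to GGGNGTGG (a Klf element) or ATTTGCAT (the octamer bound by POU factors such as Pou5f1).
Klf4, chr4:55532476-55532725, minus strand: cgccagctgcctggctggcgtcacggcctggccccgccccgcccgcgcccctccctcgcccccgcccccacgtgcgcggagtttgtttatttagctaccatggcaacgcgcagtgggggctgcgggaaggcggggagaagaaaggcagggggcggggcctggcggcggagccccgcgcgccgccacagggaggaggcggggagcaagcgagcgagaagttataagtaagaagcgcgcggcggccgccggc
Tfcp2l1, chr1:118627695-118627944, plus strand: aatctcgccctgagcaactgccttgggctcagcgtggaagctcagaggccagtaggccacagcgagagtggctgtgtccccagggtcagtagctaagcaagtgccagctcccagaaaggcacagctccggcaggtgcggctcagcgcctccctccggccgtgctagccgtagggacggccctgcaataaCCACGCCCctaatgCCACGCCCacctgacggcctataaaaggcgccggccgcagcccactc
Nr0b1, chrX:86191525-86191774, plus strand: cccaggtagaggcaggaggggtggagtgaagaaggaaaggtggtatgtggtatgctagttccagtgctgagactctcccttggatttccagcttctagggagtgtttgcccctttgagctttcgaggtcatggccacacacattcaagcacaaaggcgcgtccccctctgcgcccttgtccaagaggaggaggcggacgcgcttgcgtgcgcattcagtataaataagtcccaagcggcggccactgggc
Zfp42, chr8:43307010-43307259, minus strand: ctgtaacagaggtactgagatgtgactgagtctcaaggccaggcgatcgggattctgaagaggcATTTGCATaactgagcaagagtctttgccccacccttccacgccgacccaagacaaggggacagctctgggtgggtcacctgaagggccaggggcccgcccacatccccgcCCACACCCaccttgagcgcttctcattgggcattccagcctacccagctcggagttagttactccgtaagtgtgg

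Zfp42 held 1 octamer and 1 Klf element, and Tfcp2l1 held 2 Klf elements, spaced closely just upstream of its start. The Klf element was present in 3 of the 9 member windows (Zfp42, Tfcp2l1 and the second of Nr5a2), and in 15.9% of all 32841 promoter windows of that length. The octamer was in 1 member window and in 1.6% of all windows. A Stat element, TTCNNNGAA, was in the first Esrrb window and in 7.02% of all. No member window matched CAGACA, an extended Smad element found in 17.1% of all windows, or AAGGTCA, the element read by orphan receptors of the Esrrb and Nr5a2 kind, found in 4.08%. The motifs do not overlap one another in these windows, and a match is a string of letters, not a shown binding site. The Klf4 window was rich in G and C, at 74.0% against a median of 52.4% over all windows.

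The deposited values are probe set intensities in linear units, and they were tested as log2 values. The median intensity per array ran from 37 to 49. Background was taken from 27 probe sets for bacterial transcripts that were not added to the RNA, whose highest intensity was 34. By that measure 18 of the 24 member probe sets stood above background on every array, including the brightest of each of the 10 genes, 5 stood at or under it on every array, and 1 of Tbx3 was above it on 3 arrays. The labels' cell type was borne out by the marker levels, with 8 of 8 ES cell markers above background on every array. Treatment was visible in Lefty2, a Nodal antagonist and direct Smad2/3 target, at 497 and 493 in control, 1348 and 1253 after activin and 14 and 16 after SB431542. By the intensity trend described below, 5 of 8 pathway genes fell after SB431542 (Lefty1, Lefty2, Nodal, Smad7 and Pmepa1). The BMP4 targets Id2 and Id3 rose by 1.60 and 0.48 log2 units, where 4.25% of all genes rose and 2.23% fell. After activin Lefty2 and Pmepa1 rose and Id3 fell (−1.04), where 0.148% of all genes passed, and by limma's default none of the 8 did. The call of Lefty1 was lost without control replicate 1 and the activin call of Pmepa1 without any of 3 arrays. Of markers of other cells, the 10 trophoblast genes had a summed intensity of 17187 to 17324 after SB431542 against 11462 to 13225 in control and 10777 to 11063 after activin, with Elf5 and Tpbpa at or under background throughout. With the intensity trend described below, 6 of the 10 rose and Eomes fell, where 4.25% of all genes rose and 2.23% fell. The Gata3 call was lost without control replicate 2 or either SB431542 array. ES cell markers summed to 41264 to 43409 after SB431542, 48605 to 51582 in control and 50394 to 51053 after activin. Summed levels of 8 primitive endoderm markers lay between 445 and 565 on all arrays and those of 5 neuroectoderm markers between 579 and 738. Of these, 2 and 3 were above background on every array, and Pax6 of neuroectoderm rose after SB431542 with the intensity trend. The 8 fibroblast markers summed to 2729 to 2815 after SB431542 and 3745 to 4143 otherwise. Among them Col1a1 and Vim fell with the trend, and 2 genes were above control. The 5 mesendoderm markers, Eomes again included, summed to 196 to 221 after SB431542 and 644 to 862 otherwise. Mixl1, Eomes and Fgf8 fell with the trend. Zic1, Gsc, Col3a1 and Lum were at or under background throughout. The part of these shifts in the member values was not tested, and in bulk RNA fewer cells of a type and less RNA per cell cannot be told apart.

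The comparison of SB431542 with control asks whether naive factors depend on the Activin/Nodal signal that the cells make themselves. Most were close to their control level. Klf4 was 1.42-fold higher by its brightest probe set, while Tfcp2l1 stood at 0.746 and Nr0b1 at 0.805 of control, and Klf2 and Zfp42 differed from control by under 0.01 log2 units. By limma at its default settings 0 of 24 member probe sets passed an adjusted p of 0.05, where 0.0155% of all probe sets did (7 of 45037). Each standard error (SE) below is from this default fit, whichever setting gave the adjusted p beside it. The smallest member limma adjusted p was 0.211, for a Tbx3 probe set under background, and 0.251 among the 18 above background. Of the 24, 6 had an unadjusted p under 0.05, this Tbx3 probe set among them, as did 13% of all. With an intensity trend in the variance prior and robust estimation, a setting called the intensity trend below, 5 of 24 passed (20.8%), 2 higher and 3 lower, against 4.98% of all probe sets (3.38% higher and 1.6% lower). The 3 lower include the same Tbx3 probe set, which was under background on every array. Over the brightest probe set of each gene 3 of 10 passed, Klf4 higher and Tfcp2l1 and Nr0b1 lower, against 6.48% of 18193 genes (4.25% higher and 2.23% lower). Among the 5116 genes in the brightness range of the members the intensity trend called 13.7%. Groups of arrays were apart for 6 of the 10, 2 higher and 4 lower, as they were for 46.3% of all genes. The median log2 change of the 10 genes was −0.06 (−0.12 without control replicate 1), beside 0.00 over all named genes, and their median size of change was 0.14, the same as over genes of their brightness.

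**Figure D1:**
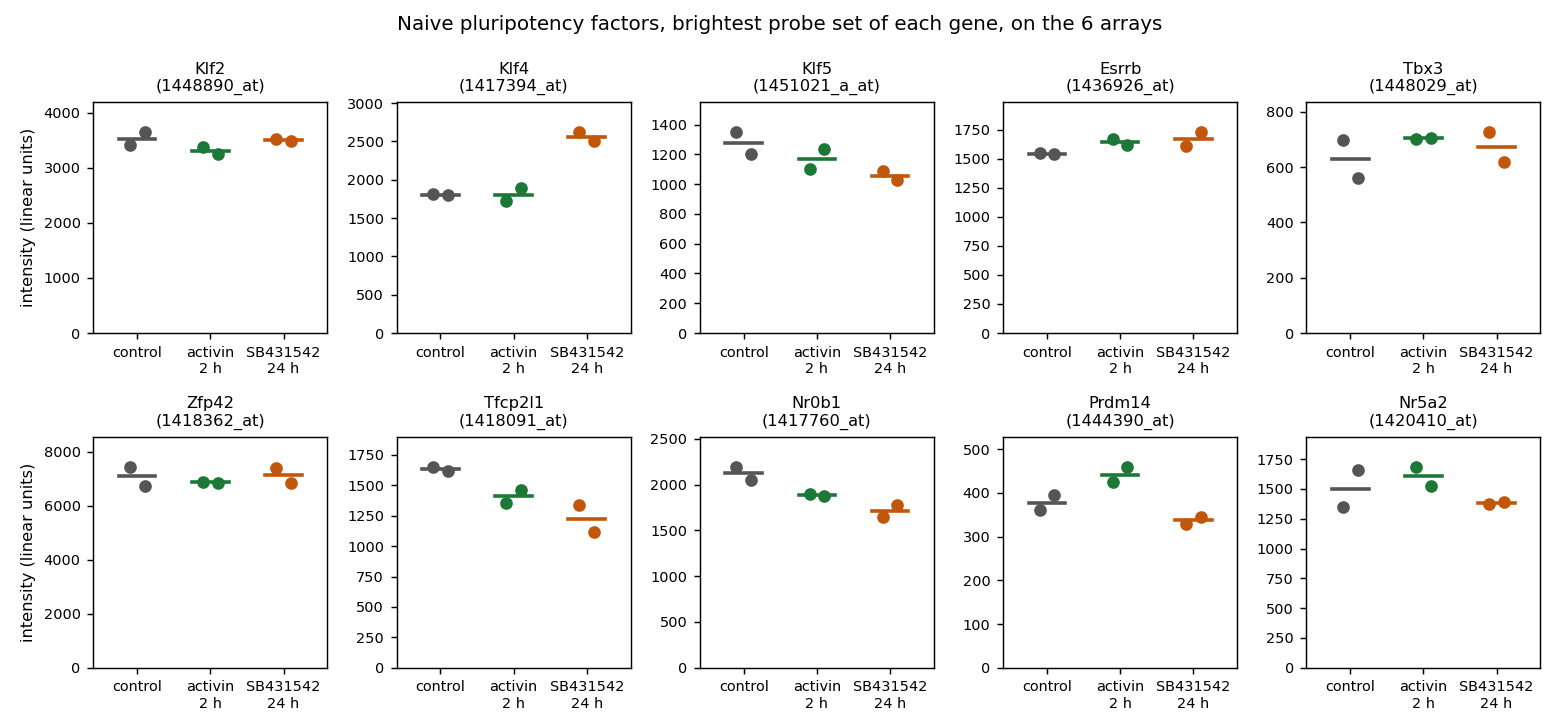
Intensity of the brightest probe set of each of the 10 genes (linear units, axis from 0), with 1 point per array and a bar at the mean of the 2 arrays of a group. The SB431542 arrays stand apart above the others for Klf4, at 2623 and 2501, and the 3 groups are apart in the order control, activin, SB431542 for Tfcp2l1 and Nr0b1.

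The 3 Klf genes are zinc finger factors that bind GC-rich elements and can partly replace one another in holding ES cells undifferentiated. Klf4, the one most directly downstream of LIF and Stat3, read 1818 and 1795 in control by 1417394_at, 1727 and 1887 after activin, and 2623 and 2501 after SB431542. Both SB431542 arrays were above the other 4, and the control and activin arrays overlapped. The log2 change from control was 0.50 (SE 0.12, limma adjusted p = 0.251), and with the intensity trend it passed (adjusted p = 1.58e-04). This call held without each of the 6 arrays in turn, with changes from 0.47 to 0.54. A second Klf4 probe set, 1417395_at, annotated to the same source sequence, did not show it: control arrays were at 537 and 516, activin arrays at 504 and 522, and SB431542 arrays at 531 and 535. Its change was 0.02, with a 95% interval of −0.27 to 0.31 that does not reach the 0.50 of the first. The interval of the first, 0.2 to 0.81, does overlap with it. The rise of Klf4 rests on 1 of its 2 probe sets.

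Klf2, a factor sustained in naive cells independently of LIF, was at 3407 and 3652 in control, 3372 and 3253 after activin, and 3533 and 3482 after SB431542. Its SB431542 arrays lay within the range of the controls, a log2 change of −0.01 with a 95% interval of −0.30 to 0.29. Klf5, which acts in the inner cell mass and the trophectoderm, read 1350 and 1201 in control by 1451021_a_at, 1103 and 1238 after activin, and 1090 and 1025 after SB431542. The SB431542 arrays were below all others while activin and control overlapped, and the change from control, −0.27 (SE 0.14), did not pass (limma adjusted p = 0.470, and 0.138 with the intensity trend). It passed with the intensity trend after quantile normalization of the deposited values, called renewed quantile normalization below (−0.32, adjusted p = 0.0426). The array medians, from 37 to 49, do not show that such a step had been applied before. A dimmer Klf5 probe set, from 96 to 128, was at 0.19, and the other was under background, from 12 to 31.

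The orphan nuclear receptors are Esrrb and Nr5a2, which bind closely related elements, Nr5a2 also supporting Pou5f1 expression, and Nr0b1 (Dax1), which lacks the usual DNA-binding domain and acts through other factors. The 3 probe sets of Esrrb disagreed after SB431542. The brightest, 1436926_at, was at 1548 and 1540 in control, 1670 and 1618 after activin, and 1606 and 1730 after SB431542, a change of 0.11 that did not pass (limma adjusted p = 0.728). The second, 1441921_x_at, read 675 and 538 in control, 706 and 841 after activin, and 1043 and 864 after SB431542. With all SB431542 arrays above all activin arrays, and these above control, it rose by 0.66 from control to SB431542 with the intensity trend (SE 0.19, limma adjusted p = 0.293 by default and 5.59e-04 with the trend), and the call held without each array (0.49 to 0.82). The suffix x marks probe sets in which some probes can also match other transcripts. The third, 1422986_at, read 414 and 408 in control, 390 and 414 after activin, and 338 and 279 after SB431542. Its SB431542 arrays were the lowest of the 6, at −0.42 (SE 0.14), which did not pass by default (limma adjusted p = 0.337) or with the intensity trend (0.0622) but did with the trend after renewed quantile normalization (−0.49, adjusted p = 0.0182). The 95% intervals of the second and the third, 0.19 to 1.12 and −0.78 to −0.06, do not meet, so these arrays give no single direction for Esrrb.

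Nr0b1 read 2195 and 2054 in control, 1898 and 1876 after activin, and 1643 and 1779 after SB431542. The groups did not overlap, in the order control, activin, SB431542, although only the outer pair gave a call. The change from control to SB431542 was −0.31 (SE 0.12, limma adjusted p = 0.379), and Nr0b1 fell with the intensity trend (adjusted p = 0.0298). That call was lost without control replicate 1 (adjusted p = 0.134), SB431542 replicate 1 (0.426) or SB431542 replicate 2 (0.0971), with changes from −0.37 to −0.26 over the arrays left out. Nr5a2 read 1345 and 1656 in control, 1686 and 1524 after activin, and 1376 and 1394 after SB431542 by its brightest probe set, with control overlapping both treatments. Its change was −0.11 (SE 0.15), and 2 further probe sets above background were at −0.20 and −0.07. The former of these, 1456521_at, read 741 and 524 on the control arrays, so the controls alone span the values of all treated arrays but 1. It passed with the intensity trend only when control replicate 2 was left out (−0.45, adjusted p = 0.0439). The other Nr5a2 probe set was under background, from 14 to 32.

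**Figure D2:**
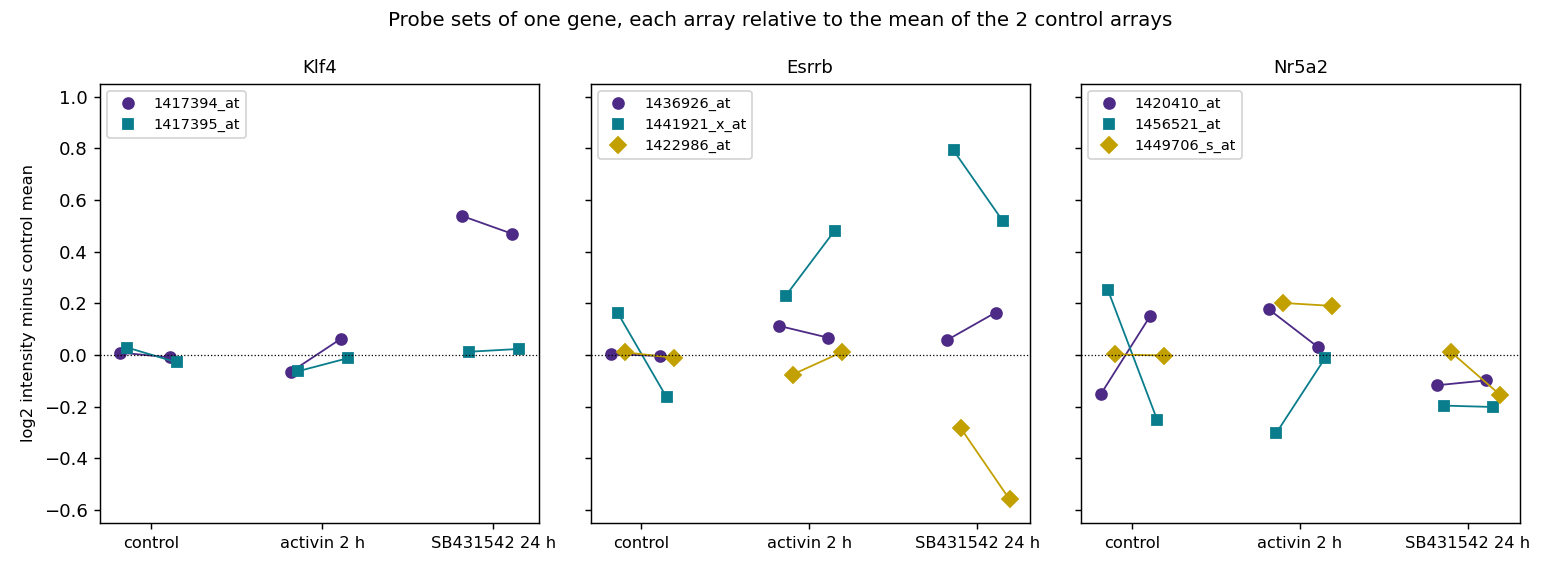
Log2 intensity of each array minus the mean of the 2 control arrays, for the probe sets of Klf4, Esrrb and Nr5a2 that were above background on every array, with arrays of a group joined by a line. After SB431542 the Klf4 probe sets stood at 0.50 and 0.02 on average, and those of Esrrb at 0.11, 0.66 and −0.42.

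Tfcp2l1, a grainyhead-related factor that mediates much of the self-renewal response to LIF, read 1653 and 1621 in control, 1357 and 1462 after activin, and 1337 and 1116 after SB431542. All treated arrays were below both controls, and all 3 groups were apart. From control to SB431542 it fell by 0.42 on the log2 scale with the intensity trend (SE 0.14, limma adjusted p = 0.336 by default and 0.0059 with the trend). Without SB431542 replicate 2 the change was −0.29 and did not pass (adjusted p = 0.348), and without any other array it passed. The other Tfcp2l1 probe sets were under background, with intensities of 8 to 10 and 9 to 20, and carry no information on the gene. Tbx3, a T-box factor that links PI3K signalling to Nanog and is also made in primitive endoderm, had 5 probe sets. By the brightest it was at 699 and 561 in control, 702 and 706 after activin, and 727 and 618 after SB431542, with the SB431542 arrays overlapping both other groups and a change of 0.10 (SE 0.16). Those at 181 to 287 and 39 to 71 were at 0.35 and 0.18, neither past the threshold. One further Tbx3 probe set, 1444594_at, passed with the intensity trend (−1.12, adjusted p = 0.0111) with intensities of only 28 and 26 in control and 11 and 14 after SB431542, all under the highest bacterial value of 34, so that call is no measurement of Tbx3. The other lay between 31 and 58.

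Prdm14, a PR domain protein that represses Fgf receptor and DNA methyltransferase genes, read 360 and 395 in control, 424 and 460 after activin, and 329 and 345 after SB431542. The groups were apart in the order activin, control, SB431542, the sequence in which Lefty2 also stood. The differences from control, 0.23 after activin and −0.16 after SB431542 (SE 0.13 for both), did not pass, with limma adjusted p = 0.837 and 0.631. Zfp42 (Rex1), a zinc finger protein derived from Yy1 and a standard marker of the naive state, was at 7437 and 6725 in control, 6874 and 6840 after activin, and 7408 and 6830 after SB431542. All groups overlapped, and the change after SB431542 was 0.01 with a 95% interval of −0.31 to 0.32. The sign of so small a change has no meaning, and it turned under other scalings (−0.07 with renewed quantile normalization and −0.02 with columns shifted to 1 median).

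The comparison of activin with control asks whether 2 h of added ligand moves the naive factors. None of the 24 member probe sets passed by limma's default, where 0% of all probe sets passed, or with the intensity trend, where 0.215% did. At an unadjusted p under 0.05 by default there was 1 of 24, the Tbx3 probe set under background, beside 6.21% of all. The brightest probe sets ran from −0.22 for Tfcp2l1 to 0.23 for Prdm14, with a median of −0.02 beside −0.01 over all named genes, and of 0.0007 where a gene's probe sets were averaged. Their median size of change was 0.11, beside 0.08 over genes of their brightness, a difference that was not tested. Control and activin arrays did not overlap for 6 of the 10, 3 higher (Esrrb, Tbx3 and Prdm14) and 3 lower (Klf2, Tfcp2l1 and Nr0b1), where 30.1% of all genes had groups that were apart. By default the 95% interval for Tfcp2l1 was −0.57 to 0.14 and for Prdm14 −0.09 to 0.55. With the intensity trend, before adjustment, that for Tfcp2l1 was −0.42 to −0.02 (limma adjusted p = 0.640). Klf4 was at 0.00, with an interval of −0.30 to 0.30.

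**Figure D3:**
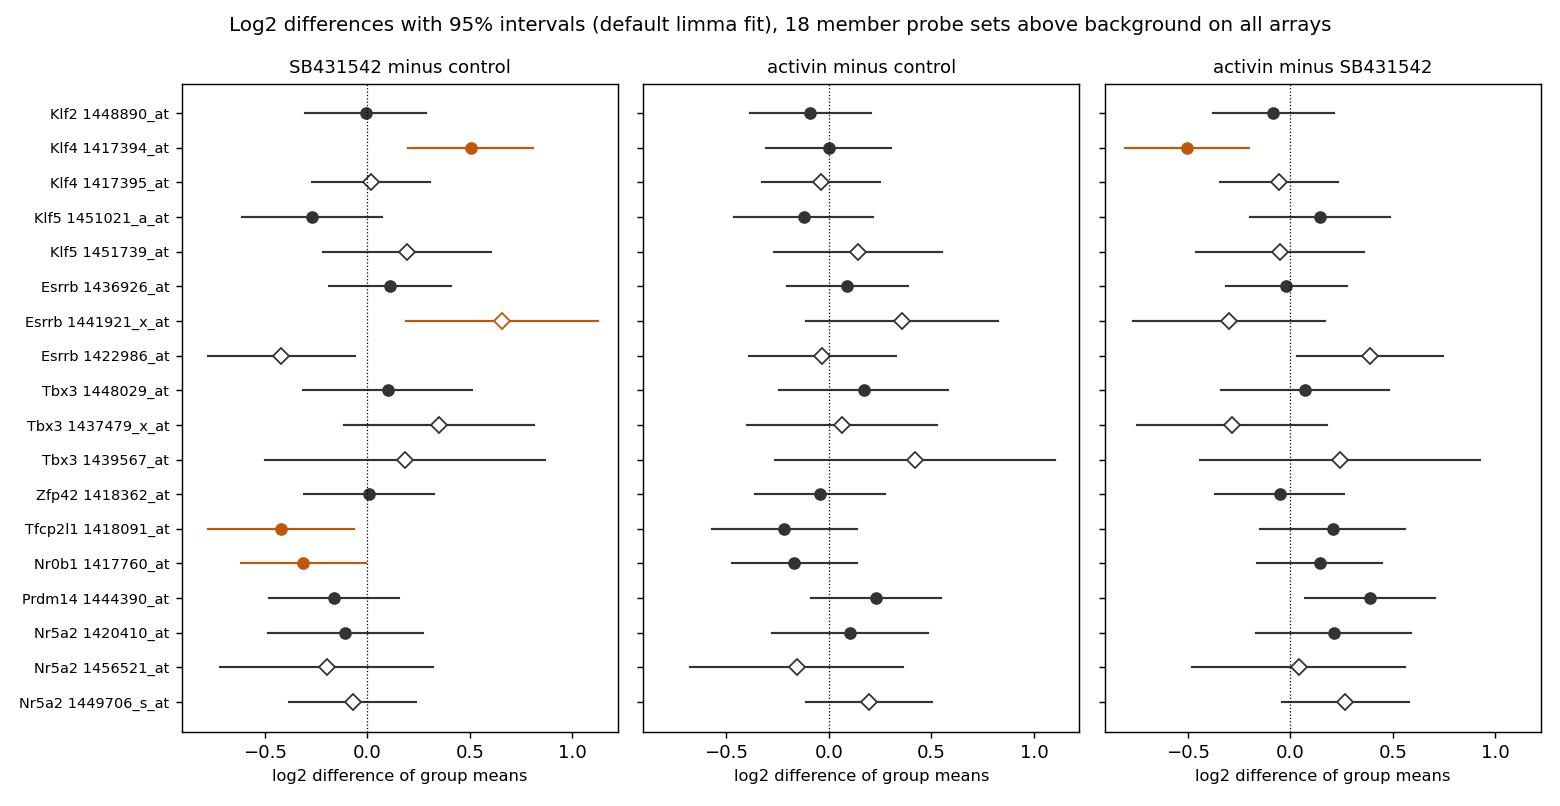
Log2 differences between group means, with 95% intervals from limma's default fit, for the 18 member probe sets above background on all arrays; filled circles are the brightest of each gene and open diamonds the others, and orange marks an adjusted p under 0.05 with the intensity trend. Orange points are Klf4, 1 Esrrb probe set, Tfcp2l1 and Nr0b1 after SB431542 and Klf4 between the treatments, and the first pair of panels shares the control arrays.

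Activin against SB431542 sets the pathway given ligand for 2 h against the pathway blocked for 24 h, and its differences do not use the control means. By limma's default 0 of 24 member probe sets passed, beside 0.02% of all, with a smallest adjusted p of 0.375 and 3 at an unadjusted p under 0.05, beside 9.04% of all. With the intensity trend 1 passed, Klf4, beside 2.27% of all probe sets (1.47% lower). Klf4 was lower after activin, at −0.50 (SE 0.12, adjusted p = 2.88e-04 with the intensity trend), and the call held without each array (−0.57 to −0.44). Its second probe set was at −0.06. Prdm14 was higher after activin, at 0.39 (SE 0.13), with both activin arrays above both SB431542 arrays. It did not pass (limma adjusted p = 0.484, and 0.132 with the intensity trend), but did with the trend after renewed quantile normalization (0.46, adjusted p = 0.0471). Tfcp2l1, Nr5a2, Nr0b1 and Klf5 were at 0.21, 0.21, 0.14 and 0.14, and each had both activin arrays above both SB431542 arrays. Groups were apart for 7 of the 10 genes, 5 higher and 2 lower after activin, beside 42.4% of all genes. The median over the 10 was 0.11, beside 0.00 over all named genes, and 0.05 without SB431542 replicate 2 or 0.06 without activin replicate 2. Their median size of difference was 0.14, beside 0.11 over genes of their brightness, which was not tested either.

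The rest of the Klf family was looked at beside its 3 naive members, by the brightest probe set of each of 12 measured genes (Klf8 had none), with Klf17 under background at 16 to 30. After SB431542, 9 of the 12 were above control and 3 below, with a median of 0.29. Of all 18193 genes 8972 were above and 9171 below. With the intensity trend 4 of 12 rose, beside 4.25% of all genes, and 0 fell, beside 2.23%. By limma's default 0 passed, and 4 had an unadjusted p under 0.05, as had 2501 of the 18193. Klf3, a repressor that competes at Klf elements, went from 1725 and 1746 to 2288 and 2376 (0.43, SE 0.12, adjusted p = 0.0018 with the trend). Klf6, a broadly made and inducible member, went from 455 and 451 to 638 and 632 (0.49, SE 0.11, adjusted p = 0.0091 with the trend), and 2 of its other probe sets above background on every array passed too, at 0.71 and 0.63. Both SB431542 arrays were above both controls for each gene.

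Klf9, a hormone-responsive member, went from 3593 and 4080 to 4910 and 5021 (0.38, SE 0.13, adjusted p = 0.0013 with the trend), and Klf10, an early target of TGF-beta in many cells, from 993 and 895 to 1252 and 1253 (0.41, SE 0.13, adjusted p = 0.0102 with the trend). The Klf9 call held without each array. Klf3 lost its call without SB431542 replicate 2, Klf6 without either SB431542 array, and Klf10 without control replicate 2 or either SB431542 array, which left from 1 to 5 genes called over the 6 omissions. Klf11, likewise known as a TGF-beta early gene, was at −0.32 and did not pass. Of the other Klf3 probe sets above background on every array, 1 rose by 0.61 and those at 0.13, 0.03 and −0.14 did not pass. The direction of the family's median did not change with renewed quantile normalization (0.25) or with columns shifted to 1 median (0.26). After activin the same 12 genes had a median of −0.07 and none passed with either setting, where the trend called 0.148% of all genes. Between the treatments Klf3 and Klf6 were lower after activin with the intensity trend, at −0.56 and −0.57, where 2.12% of all genes were. The Klf3 call held without each array, and that of Klf6 was lost without either SB431542 array.

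**Figure D4:**
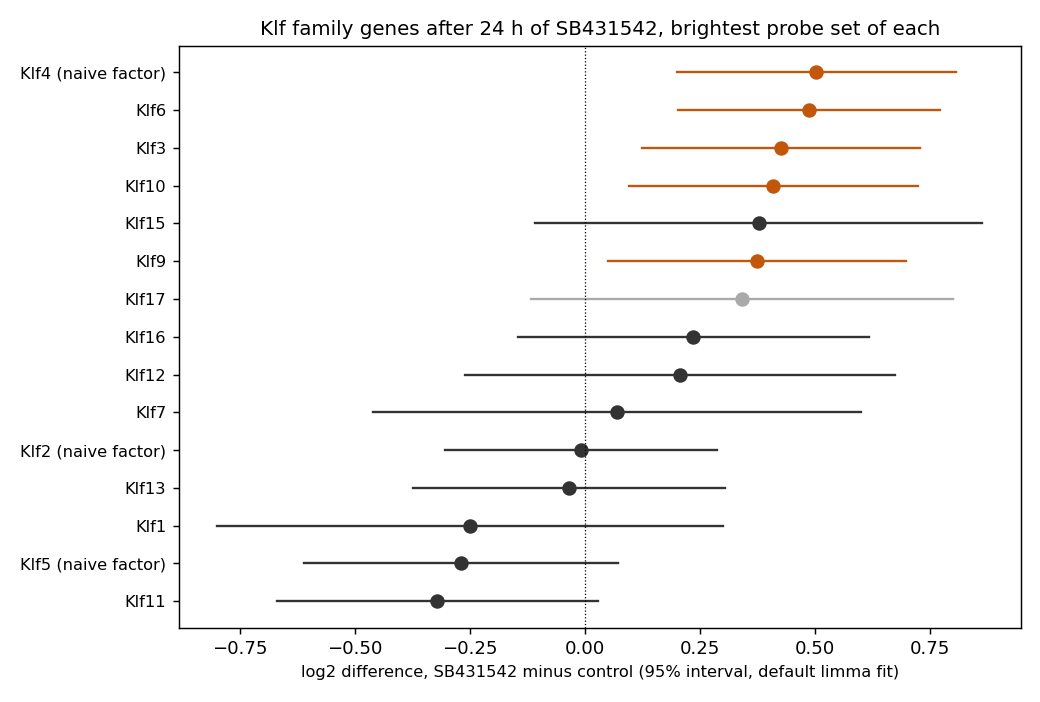
Log2 difference of SB431542 from control, with 95% intervals from limma's default fit, for the brightest probe set of 15 Klf genes. Orange marks an adjusted p under 0.05 with the intensity trend. Grey, used in place of orange where both apply, marks a gene at or under background on at least 1 array. Klf4, at 0.50, stands with Klf6, Klf3, Klf10, Klf15 and Klf9 at the top, and Klf2 and Klf5 stand at −0.01 and −0.27.

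Relatives of the other members gave 24 measured genes (Prdm, T-box, Tfcp2, Grhl, Esrr and other receptor genes and Yy1). After SB431542 Eomes, a T-box factor of mesendoderm and trophoblast, was the one gene of the list called by limma's default. It fell from 229 and 239 to 50 and 44 (−2.32, limma adjusted p = 0.0457). The default call was lost whichever array was left out, with changes from −2.41 to −2.23. With the intensity trend Eomes fell too, a call that held without each array, and Tbx20 and Ubp1 rose. That setting called 4.25% of all genes higher and 2.23% lower. Tbx20, a heart T-box gene, went from 70 and 49 to 139 and 132 (1.21, SE 0.23, adjusted p = 0.0059 with the trend), while its other probe sets, reaching 46 at most, were at 0.90 and −0.17 and did not pass. That call was lost without control replicate 2 or either SB431542 array. Ubp1, a Tfcp2 relative, was at 0.33 (adjusted p = 0.0435 with the trend) and lost its call without any 1 of the control or SB431542 arrays. The medians of the list were 0.08 after SB431542 and 0.13 after activin, and none passed after activin with either setting. Between the treatments Eomes and Prdm1 were higher after activin and Tbx20 and Nr6a1 lower with the intensity trend, beside 1.26% and 2.12% of all genes. The calls of Eomes and Tbx20 held without each array, that of Nr6a1 was lost without either SB431542 array, and that of Prdm1 is taken up below.

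Partners and inputs of the naive network were followed in a list of 27 measured genes. After SB431542, 18 were below control and 9 above, with a median of −0.09. By limma's default 0 passed, and with the intensity trend 5 fell (beside 2.23% of all genes) and 1 rose (beside 4.25%). Those that fell were Pou5f1, Nanog, Dppa5a, Tdgf1 and Manba, and the one that rose was Zfp281, a zinc finger partner of Nanog. Tdgf1, the Nodal coreceptor Cripto, went from 5602 and 5362 to 4386 and 4763 (−0.26, adjusted p = 0.0241 with the trend). Manba, a lysosomal mannosidase, went from 948 and 867 to 598 and 634 (−0.56, adjusted p = 0.0017). The calls of Pou5f1 and Manba held without each array. Those of Nanog and Tdgf1 were lost without control replicate 1 or either SB431542 array, those of Dppa5a and Zfp281 without SB431542 replicate 1. The 5 that fell became 2 without SB431542 replicate 1, 3 without SB431542 replicate 2 and 9 without control replicate 2. Zfp281 went from 957 and 1026 to 1570 and 1335 by its first probe set (0.55), while its second was at 0.05.

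Transcripts of the inputs to the naive factors were near control after SB431542, while protein levels and signalling activity of these inputs were not measured. Stat3 was at −0.09, the LIF receptor subunits Lifr and Il6st at 0.07 and −0.05, Ctnnb1 (beta-catenin) at −0.02 and Tcf7l1 at 0.00, and none passed. Socs3, a feedback inhibitor that Stat3 induces, was at 0.27, with all 3 of its probe sets between 0.24 and 0.32 and none past the threshold (adjusted p = 0.1 for the brightest with the trend). Its arrays were at 1396 and 1319 in control and 1596 and 1683 after SB431542. None of the 27 passed after activin with either setting, and their median was −0.01. Between the treatments 7 were higher after activin (Pou5f1, Nanog, Dppa2, Dppa5a, Tdgf1, Tcl1 and Manba) and Fbxo15 was lower with the intensity trend, where 1.26% and 2.12% of all genes were called in those directions. Tdgf1 had the widest difference of these, at 0.48, and was the one of these 8 that kept its call without each array. The 7 higher calls became 1 without SB431542 replicate 1 and 4 without SB431542 replicate 2 or activin replicate 1, and the Fbxo15 call was lost without any of these 3.

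The primed epiblast list of 15 measured genes shows the other side of the pluripotency scale. After SB431542, 11 were below control, with a median of −0.33, and 5 fell with the intensity trend (Fgf5, Fgf15, Dnmt3a, Utf1 and Cdh2) and 0 rose, beside 2.23% and 4.25% of all genes. Fgf15 had the deepest change, from 172 and 154 to 47 and 44. Fgf5 was near background in control, at 29 and 42, and under it after SB431542, at 16 and 13. Otx2 and Pou3f1, transcription factors that drive the exit from the naive state, were at 0.43 and 0.32, and neither passed. The calls of Fgf15 and Cdh2 held without each array, those of Fgf5, Dnmt3a and Utf1 were lost without either SB431542 array, and those of Fgf5 and Dnmt3a also without control replicate 2, which left 2 and 3 called. None of the 15 passed after activin with either setting, and between the treatments Fgf5, Utf1, Fgf15, Lef1 and Cdh2 were higher after activin with the intensity trend, beside 1.26% of all genes. Of these 5, Fgf15 held without each array, and the count became 2 without either SB431542 array and 3 without either activin array.

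As a description, the genes most like the 3 members with the widest range of group means were found by Pearson correlation over the 6 arrays, among the 710 or 711 other genes with a mean log2 intensity over 7 whose own group means ranged by at least 0.5. With 6 arrays in 3 groups such values are high for many genes, and 95 of 710 reached over 0.95 with Klf4. Nearest to Klf4 were Vgll3 (r = 0.999), Sun2 (0.995) and Igdcc3 (0.993), whose means after SB431542 were above control by 1.29, 0.61 and 0.95. Nearest to Tfcp2l1 were Susd4 (0.980), Dok1 (0.953) and Baiap2 (0.938), which stood in its order of control, activin, SB431542. Nearest to Prdm14 were Rhob (0.964), Irak2 (0.962) and Prdm1 (0.959). Prdm1 (Blimp1), like Prdm14 a PR domain factor of germ cell precursors, read 163 and 160 in control, 204 and 241 after activin, and 109 and 135 after SB431542, and it was higher after activin than after SB431542 by 0.87 with the intensity trend (adjusted p = 0.0035), a call lost without activin replicate 2 or SB431542 replicate 1.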

How the data were processed

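RNA of 6 samples of E14Tg2a cells was measured on Affymetrix arrays, 2 per group, with groups taken from the sample titles. The design text names the A version of the mouse array, and the table's 45101 probe sets are those of the larger version. The authors deposited intensities per probe set in linear units, as whole numbers from 6 to 26405. Of the method, the submitters' processing notes give the name RMA alone, and the software is not given in the sources used here.

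Each intensity was converted to log2 without further normalization, and 64 control probe sets were set aside. Among the remaining 45037, 34945 have 1 symbol in the platform annotation, 932 several and 9160 none, and only the first were named. The brightest probe set by mean log2 stood for a gene. A mean for each group was fitted to all arrays with limma 3.58.1 under R 4.3.3 and default eBayes, and Benjamini-Hochberg adjustment over all 45037 probe sets at 0.05. The alternative with an intensity trend and robust estimation is given beside it because it moved most counts. Other alternatives were renewed quantile normalization, columns shifted to 1 median, the dimmest 40% left out, 16 added before log2, a replicate block and each array left out. Quantile normalization is called renewed or repeated only because the processing notes name RMA. The deposited columns, with medians from 37 to 49, do not show that it had been applied to them. The fit was tested on simulated data. The members, gene lists and naming rule (all members, fixed lists of companions, relatives and primed genes, and the 3 genes nearest the 3 most variable members) were chosen with earlier results of these data known. Genes of a list that passed were named. Array number limits the precision, and no detection calls were used.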

Additional observations from a re-analysis of the deposited data

How the results depend on the processing

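By limma's default 7 probe sets were called after SB431542, 0 after activin and 9 between the treatments. In that order the counts were 2242, 97 and 1024 with the intensity trend, 40, 0 and 49 with repeated quantile normalization, 791, 78 and 412 with columns shifted to 1 median, 21, 0 and 30 with the dimmest 40% left out, and 41, 0 and 64 with 16 added before log2. The cause was not tested. At an unadjusted p under 0.05 the default gave 2797 after activin. With 1 array left out they ran from 0 to 2560, from 0 to 201 and from 0 to 1493, the upper ends with the intensity trend, where the lowest were 947 without SB431542 replicate 1, 21 without activin replicate 2 and 402 without SB431542 replicate 1. Member probe sets called after SB431542 numbered 0 by default, 5 with the intensity trend, 1 with shifted columns and 0 to 6 with 1 array left out; between the treatments they numbered 0, 1, 0 and 0 to 1, and after activin 0 under every setting run. Repeated quantile normalization with the intensity trend, chosen after seeing the data, gave 2442, 80 and 1017 probe sets, with 8 members after SB431542 and 2 between the treatments. A Tbx3 probe set under background was among the 5 and the 8 after SB431542, and was the 1 called with shifted columns. The 8 also held a Tfcp2l1 probe set under background.

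No pairing by replicate number was seen: deviations of same-numbered arrays correlated at −0.14 between control and activin, 0.02 between control and SB431542 and −0.09 between the treatments. These correlations run over all probe sets, dim ones included, of columns whose medians differ, so they cannot settle whether same-numbered arrays shared a culture. With the replicate block 0, 0 and 1 probe sets were called, and with the numbers of the activin arrays exchanged, a crossed pairing chosen after seeing the data, 2, 0 and 3, with 0 members under both.

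The median change of the 10 genes ran over the alternatives from −0.12 to −0.06 after SB431542 (−0.06 in the report), from −0.09 with shifted columns to 0.0007 with a gene's probe sets averaged after activin (−0.02), and from 0.05 to 0.16 between the treatments (0.11). Under repeated quantile normalization, with either variance setting, the dim Klf4 probe set turned to −0.041 after SB431542 and 0.0061 between the treatments, Zfp42 to −0.075 after SB431542 and 0.0043 between the treatments, and the brightest Esrrb probe set to 0.040 between the treatments. With shifted columns the dim Klf4 probe set turned to −0.0074 and Zfp42 to −0.017 after SB431542, and 1 Tbx3 probe set to −0.0011 after activin. Leaving out 1 array turned the sign of 20 of 54 member changes, none larger than 0.20. After SB431542 these ranged from −0.011 to 0.047 (Klf4, dim), −0.064 to 0.081 (Zfp42), −0.058 to 0.042 (Klf2), −0.061 to 0.26 and −0.22 to 0.58 (Tbx3), and −0.26 to 0.042, −0.45 to 0.051 and −0.15 to 0.011 (Nr5a2). After activin they ranged from −0.12 to 0.028 (Zfp42), −0.047 to 0.25 and −0.41 to 0.092 (Nr5a2), −0.076 to 0.011 (Esrrb), −0.16 to 0.29 (Tbx3), −0.065 to 0.063 (Klf4, brightest) and −0.0010 to 0.28 (Klf5, second in brightness). Between the treatments they ranged from −0.11 to 0.0057 (Zfp42), −0.074 to 0.034 (Esrrb), −0.046 to 0.19 (Tbx3), −0.19 to 0.094 (Klf5) and −0.10 to 0.19 (Nr5a2). A left-out array leaves its group with 1, which is then assumed to vary like the others. Probe sets near background carry no direction.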
